A study of Mus musculus with 12 samples.

Results

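The genes followed here encode enzymes that take apart RNA-DNA hybrids or limit their formation. These are Rnaseh2a, Rnaseh2b and Rnaseh2c, the subunits of RNase H2, Rnaseh1, the helicases Aqr and Dhx9, and the topoisomerase Top1. All were picked by name, with earlier results of these data known. They are 7 of the 24100 genes in the count table, all 7 passed the filter on low counts, and they stand among 14263 genes tested. RNA was sequenced from mouse embryonic fibroblasts (MEFs), cells grown out of embryos, of 2 lines. The paper isolated its MEF lines from individual mothers and compared littermates, while the labels name no mother. In each line Rtf2+/+ MEFs (WT) were set against Rtf2-/lox MEFs (RTF2-deficient), which carry a null allele and an allele that Cre recombinase inactivates, and each of these 4 groups had 3 libraries. By their alleles the genotypes of a line came from different embryos, so within a line genotype and embryo cannot be told apart. Both genotypes received Cre from a retrovirus (Hit & Run pMMP Cre, by the paper's methods), 72 hrs before harvest, and the MEFs were immortalized with SV40 large T antigen, so a control without Cre is not analysed here. The paper calls the 3 libraries of a group technical replicates, so p-values measure the spread between these libraries, which may be technical, and the lines are the only replicates of the embryo.

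RNase H enzymes cut the RNA strand of an RNA-DNA hybrid. RNase H2 has a catalytic subunit, encoded by Rnaseh2a, and a pair of auxiliary subunits, encoded by Rnaseh2b and Rnaseh2c, that the active complex needs. It is also the enzyme that removes single ribonucleotides left in DNA by the replicative polymerases, and inherited loss of function in any of the subunits causes Aicardi-Goutieres syndrome, an inflammatory disease marked by interferon signalling. RNase H1, encoded by Rnaseh1, cuts only longer hybrids and is required in mitochondria. R-loops form when a nascent transcript pairs with its DNA template. The helicases AQR (aquarius, a spliceosome component) and DHX9 unwind RNA-containing duplexes, and topoisomerase I, the product of Top1, relaxes the supercoils behind a transcribing polymerase that favour R-loops. RTF2 is a replisome protein that the study links to RNase H2 at replication forks, and the comparison of genotypes asks whether the genes of these enzymes were transcribed to the same level without it.

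Libraries held from 39360167 to 44695002 counts (median 42066275). Values are CPM, counts relative to the library total after TMM normalization, which scales the libraries to one another. All 9 fibroblast markers listed were detected in every library, although Dcn reached only 2.10 CPM and Pdgfra lay between 3.49 and 21.7 CPM. None of the 9 passed the test of genotype in either direction. Their summed level overlapped between genotypes in line 1 (22900 to 30000 CPM in WT, 25000 to 31700 CPM in RTF2-deficient libraries) and not in line 2 (19100 to 21300 and 21400 to 24400 CPM). Of 4 epithelial markers 3 stayed below 1 CPM in every library and Cdh1 reached 3.0 CPM, and of 3 immune markers 2 stayed below 1 CPM while Cd68 lay between 1.44 and 8.95 CPM. Of 3 endothelial markers Pecam1 and Cdh5 stayed below 1 CPM, and Kdr, at 6.71 to 15.2 CPM, was the 1 that passed as higher in RTF2-deficient MEFs. Of 3 neural markers Sox10 reached only 0.145 CPM, while Tubb3 lay between 8.25 and 53.3 CPM and Map2 between 36.2 and 92.9 CPM. Of 3 muscle markers Myod1 reached 2.91 CPM, Des 18.3 CPM, and Acta2, which fibroblasts also express, lay between 2420 and 6880 CPM. Summed over each list, the muscle markers did not overlap between genotypes in line 1 (5270 to 5990 CPM in WT, 6030 to 6890 CPM in RTF2-deficient libraries) and did in line 2 (2430 to 5350 and 4210 to 5260 CPM). Acta2 made up nearly all of that sum. In line 1, 9.79% of all genes had every RTF2-deficient library above every WT library. The summed immune markers overlapped in line 1 (1.51 to 1.93 CPM in WT, 1.74 to 1.88 CPM in RTF2-deficient libraries) and not in line 2 (5.29 to 9.06 and 3.05 to 3.87 CPM). For line 2 no share of all genes was computed, the fibroblast gap there was narrow, and no sum was tested. The summed epithelial, endothelial and neural markers overlapped between genotypes in both lines, at 0.446 to 3.6, 6.78 to 15.4 and 57.3 to 131 CPM over the 12 libraries. The part of other cell types in the values below was not tested. Rtf2 followed the labels: it lay between 44.8 and 57.8 CPM in the 6 WT libraries and between 5.44 and 6.66 CPM in the 6 RTF2-deficient libraries. Its log2 fold change, RTF2-deficient over WT, was -3.01 (SE 0.0567, n = 6 libraries per genotype; edgeR's quasi-likelihood test, Benjamini-Hochberg adjusted p = 2.45e-11), so 12.4% of the WT level remained.

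In RefSeq's annotation of GRCm38 (mm10), Rnaseh2c is a short gene of chromosome 19 (5601873 to 5602959, + strand). Its coding transcript in GENCODE M21 has 4 exons, 1126 bases and 166 codons. Rnaseh2a lies on chromosome 8 (84956610 to 84969598, - strand, 8 exons and 301 codons) and Rnaseh2b on chromosome 14 (62332068 to 62372996, + strand, 11 exons and 308 codons). Rnaseh1 lies on chromosome 12 (28649601 to 28659592, + strand), Dhx9 on chromosome 1 (153455756 to 153487688, - strand), Aqr on chromosome 2 (114101161 to 114175339, - strand) and Top1 on chromosome 2 (160645897 to 160722764, + strand). Aqr and Top1 thus share a chromosome with Rtf2, at distances of 58.3 Mb and 11.7 Mb.

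RefSeq's table of promoter windows in GRCm38.p6, each 250 bases before to 50 bases after a start site, held 5 of the 7 genes and not Rnaseh2b and Rnaseh1. The sequence before Rnaseh2c is shown because it was the gene that changed, and a stretch from the Rnaseh2a window because its product works in the same complex. Both windows held ACTACNNTTCCC, in capitals below, on the strand of the gene, a string that was noticed in these windows and not chosen beforehand. The Rnaseh2c sequence is the 250 bases before the start site, chr19:5601623-5601872, and holds no annotated exon. The Rnaseh2a stretch is 30 bases at chr8:84966168-84966197, printed 5′ to 3′ on the - strand, where minor GENCODE transcripts have an exon. The start site of that window is base 84966076, inside the RefSeq span of Rnaseh2a and not at its outer end, so the stretch lies within the gene span.
Rnaseh2c: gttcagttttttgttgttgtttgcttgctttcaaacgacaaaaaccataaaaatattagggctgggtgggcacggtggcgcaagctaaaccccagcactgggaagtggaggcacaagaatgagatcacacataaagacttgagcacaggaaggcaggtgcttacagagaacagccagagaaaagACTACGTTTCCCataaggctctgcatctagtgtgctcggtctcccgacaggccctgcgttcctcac
Rnaseh2a: tcctcaaagACTACAATTCCCaggagagaa

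The match began 66 bases upstream of the start in Rnaseh2c and 112 bases upstream of the internal start site in Rnaseh2a. Searched on both strands, ACTACNNTTCCC was in 343 of all 32851 windows, or 1.04%, and in no window of Aqr, Dhx9 or Top1. The other strings searched were CCAAT, in 37.4% of all windows, GGGCGG, in 35.7%, and CCGGAAG, in 8.86%. Rnaseh2a held CCAAT and GGGCGG, Aqr held CCAAT and CCGGAAG, Dhx9 held GGGCGG and CCGGAAG, Top1 held GGGCGG, and Rnaseh2c held none of these. A match is a run of letters and not a measured site.

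Rnaseh2c was the gene among the 7 that changed with genotype, falling to 49.1% of its WT level, while the other 6 had log2 fold changes between -0.11 and 0.17 and did not pass the test. In WT line 1 Rnaseh2c was at 15.1, 15.2 and 16.1 CPM and in RTF2-deficient line 1 at 7.76, 8.17 and 7.83 CPM. In WT line 2 it was at 12.6, 21.3 and 14.1 CPM and in RTF2-deficient line 2 at 7.39, 7.18 and 8.05 CPM. The highest RTF2-deficient library lay well below the lowest WT library, and within WT line 2 replicate 2 stood above the others. These values rest on 280 to 968 counts per library. A gap of this kind, with every RTF2-deficient library under every WT library, was found in 629 of the 14263 genes, or 4.41%, and in Rnaseh2c as the only one of the 7.

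**Figure D1:**
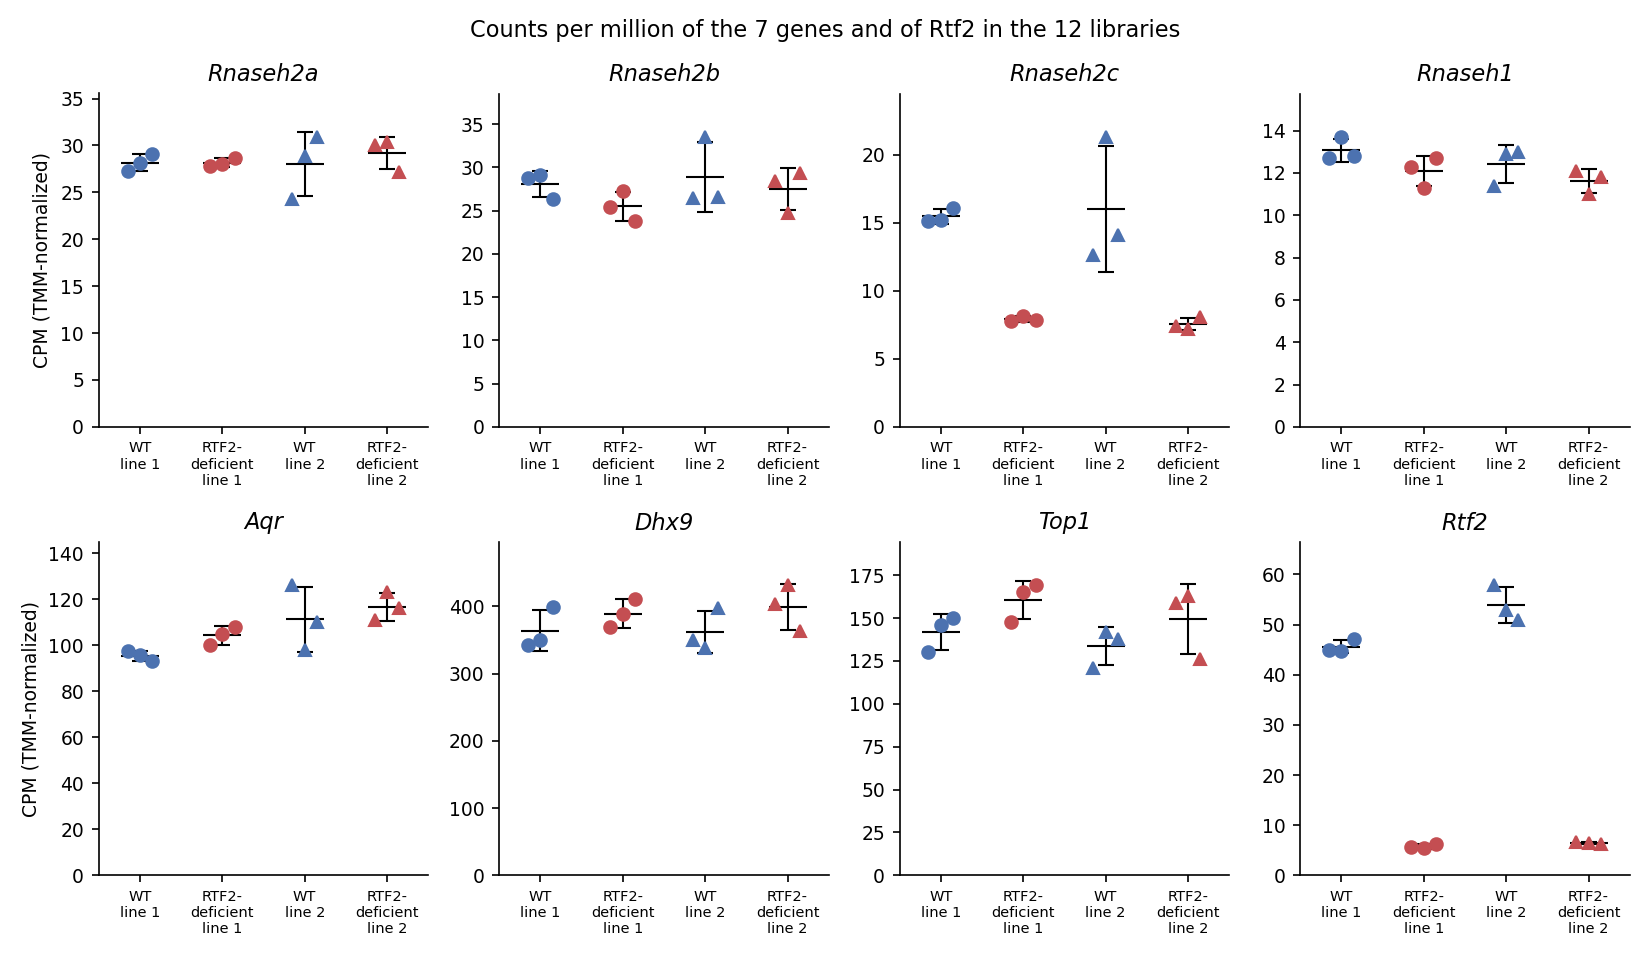
TMM-normalized CPM (y axis, from 0) of the 7 genes and of Rtf2 in the 12 libraries, by group (x axis). Points are libraries (circles line 1, triangles line 2, blue WT, red RTF2-deficient), and bars give the mean and SD of 3 libraries. Rnaseh2c in RTF2-deficient MEFs sits between 7.18 and 8.17 CPM, below every WT library, as does Rtf2, while the genotypes overlap for the other 6 genes.

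The log2 fold change of Rnaseh2c over both lines was -1.02 (SE 0.114, 95% confidence interval -1.27 to -0.78, n = 6 libraries per genotype; edgeR's quasi-likelihood test, adjusted p = 0.000145). Of all genes tested, 13.2% passed at an adjusted p under 0.05, 8.18% passed as lower in RTF2-deficient MEFs, and 1.22% passed as lower and by more than 1 on the log2 scale. Of the 7 genes, 1 was lower and 0 were higher, so against that background the count says nothing about the group as such. Among all genes tested, 3.38% had a change at least as large as that of Rnaseh2c in either direction. The 2-fold threshold was passed narrowly: without WT line 2 replicate 2 the log2 fold change was -0.90 with the adjusted p still under 0.05, and it was below -1 in the other 11 fits that left out 1 library. When the 3 libraries of each group were summed and the 4 sums taken as samples, the log2 fold change was -1.02 with an adjusted p of 0.103, and neither Rtf2 nor any other gene passed.

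The change of Rnaseh2c was present in each line. It was -0.97 in line 1 (SE 0.166, 3 libraries per genotype; edgeR's quasi-likelihood test, adjusted p = 0.00968), where 2.52% of all genes passed as lower. It was -1.08 in line 2 (SE 0.166; adjusted p = 0.00219), where 7.03% passed as lower. Same-numbered libraries of line 1 deviated together, and with line 1 fitted alone and the replicate number as a block, a fit added after the values were seen, Rnaseh2c was at -0.97 (adjusted p = 4.35e-05 in edgeR's quasi-likelihood test), where 14.7% of all genes passed as lower. The difference between the lines was -0.12 (SE 0.232, adjusted p = 0.993). None of the 7 genes passed the test of that interaction at an adjusted p under 0.05, against 1.29% of all genes. DESeq2 also called 0 of the 7 in that test, and its share of all genes is not given here.

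The other subunits of RNase H2 kept levels that overlapped between genotypes. Rnaseh2a, the catalytic subunit, was at 27.3, 28.1 and 29.1 CPM in WT line 1 and at 27.8, 28.0 and 28.7 CPM in RTF2-deficient line 1. In line 2 it was at 24.3, 28.9 and 30.9 CPM in WT and at 30, 30.4 and 27.2 CPM in RTF2-deficient MEFs. The lowest and the highest of the 12 values both came from WT line 2, so the spread within that group covered the whole range. The log2 fold change was 0.03 (SE 0.0613, 95% confidence interval -0.10 to 0.16; edgeR's quasi-likelihood test, adjusted p = 0.782), which spans changes of -6.93% to 12%. Rnaseh2b, whose protein carries a motif that binds the sliding clamp PCNA, was at 28.8, 29.1 and 26.3 CPM in WT line 1 and at 25.4, 27.2 and 23.8 CPM in RTF2-deficient line 1. In line 2 it was at 26.5, 33.5 and 26.6 CPM in WT and at 28.4, 24.7 and 29.3 CPM in RTF2-deficient MEFs. The genotypes overlapped in both lines, with WT line 2 replicate 2 again highest. The log2 fold change was -0.11 (SE 0.0737, interval -0.27 to 0.05; adjusted p = 0.368), which spans changes of -16.9% to 3.88%.

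Within a library the scaling cancels, so the ratio of subunit mRNAs was compared as well. The log2 ratio of Rnaseh2c to Rnaseh2a averaged -0.85 ± 0.23 across WT libraries and -1.89 ± 0.13 across RTF2-deficient libraries (SD, n = 6 each). It ran from -1.13 to -0.44 in WT and from -2.08 to -1.75 in RTF2-deficient MEFs, without overlap. The difference was -1.03 (exact permutation test of genotype within lines, two-sided p = 0.005, adjusted over 2 comparisons p = 0.005), with 6 of 6 RTF2-deficient libraries below every WT library. The log2 ratio of Rnaseh2c to Rnaseh2b averaged -0.87 ± 0.16 across WT libraries and -1.77 ± 0.12 across RTF2-deficient libraries (SD, n = 6 each), a difference of -0.90 (exact permutation test, two-sided p = 0.005, adjusted p = 0.005). With 400 arrangements 0.005 is the smallest p this test can give. It exchanges single libraries, which the paper calls technical replicates, and does not keep the pairing assumed for line 1. Rnaseh2c alone did not overlap between genotypes while Rnaseh2a and Rnaseh2b changed little, so both ratios restate that result. Per kilobase of transcript, Rnaseh2c stood at 1.02 ± 0.172 times Rnaseh2a in WT and at 0.491 ± 0.0444 times Rnaseh2a in RTF2-deficient libraries (SD, n = 6 each). Against Rnaseh2b it stood at 0.729 ± 0.0817 in WT and at 0.389 ± 0.032 in RTF2-deficient libraries (SD, n = 6 each). These levels rest on the principal transcript of each gene. For Rnaseh2c that transcript runs past the RefSeq end of the gene, and no shorter length was tried. With the longest annotated transcript of Rnaseh2a the ratio to Rnaseh2a was 1.48 ± 0.25 in WT and 0.716 ± 0.0648 in RTF2-deficient libraries (SD, n = 6 each).

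**Figure D2:**
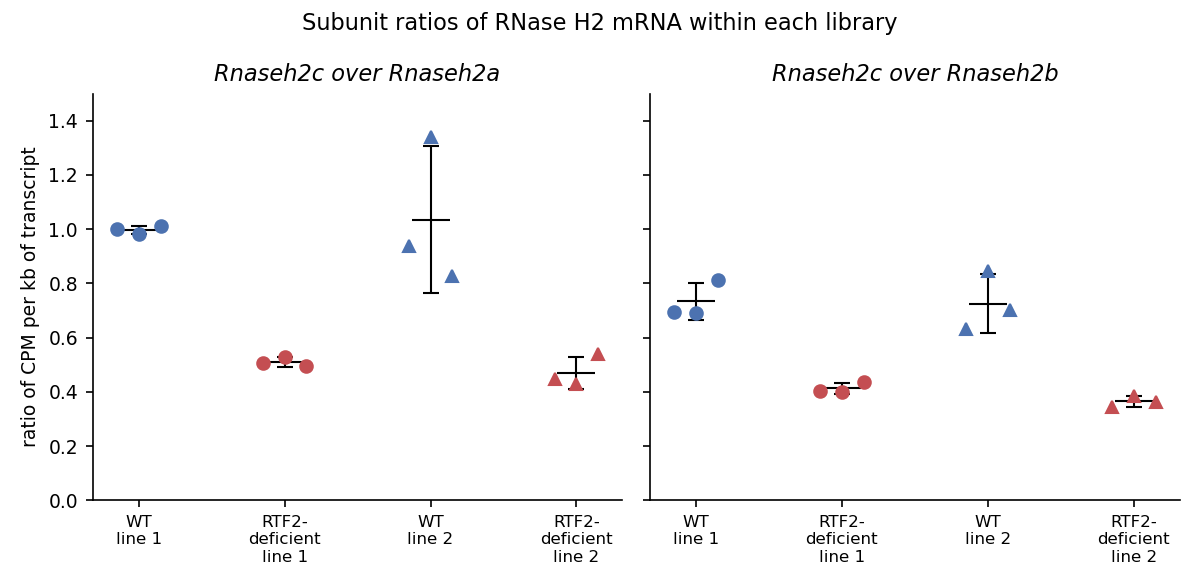
Ratio of CPM per kilobase of Rnaseh2c to that of Rnaseh2a (left) and Rnaseh2b (right) in each library, by group, with the y axis from 0. Points are libraries and bars the mean and SD of 3 libraries. RTF2-deficient libraries lie between 0.429 and 0.538 on the left and between 0.345 and 0.436 on the right, below every WT library.

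Rnaseh1 varied least of the 7 within groups, with a coefficient of variation of 5.73%. It lay between 11.4 and 13.7 CPM (median 12.8) in WT and between 11 and 12.7 CPM (median 12) in RTF2-deficient libraries, with a ratio of only 1.25 between the highest and the lowest of the 12. The genotypes overlapped, and the log2 fold change was -0.10 (SE 0.0604, interval -0.23 to 0.03; edgeR's quasi-likelihood test, adjusted p = 0.285), which spans changes of -15% to 2.01%. A fall of the size seen in Rnaseh2c lies outside that interval, as it does for Rnaseh2a and Rnaseh2b.

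The helicases had small positive values that did not pass. Aqr was at 97.5, 95.8 and 93.0 CPM in WT line 1 and at 100, 105 and 108 CPM in RTF2-deficient line 1. In line 2 it was at 126, 97.8 and 110 CPM in WT and at 111, 123 and 116 CPM in RTF2-deficient MEFs. The genotypes did not overlap in line 1, where 9.79% of all genes had every RTF2-deficient library above every WT library, but did in line 2, where WT replicate 1 was the highest of all 12 libraries. The log2 fold change over both lines was 0.10 (SE 0.0596, interval -0.03 to 0.23; edgeR's quasi-likelihood test, adjusted p = 0.302). Dhx9, the most abundant mRNA of the 7, lay between 338 and 399 CPM in WT (median 350) and between 363 and 431 CPM in RTF2-deficient libraries (median 395). Its log2 fold change was 0.12 (SE 0.0649, interval -0.02 to 0.26; adjusted p = 0.249), and the genotypes overlapped.

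Top1 came nearest to the threshold among the other 6 genes. It was at 130, 146 and 150 CPM in WT line 1 and at 148, 165 and 169 CPM in RTF2-deficient line 1. In line 2 it was at 121, 142 and 138 CPM in WT and at 159, 163 and 126 CPM in RTF2-deficient MEFs. RTF2-deficient line 2 replicate 3 lay within the WT range and the others of that group above it. The log2 fold change was 0.17 (SE 0.0737, interval 0.0079 to 0.33), with an unadjusted p of 0.0413 and an adjusted p of 0.156 in edgeR's quasi-likelihood test. Without RTF2-deficient line 2 replicate 3 it was 0.23 with an adjusted p of 0.037, so the call for Top1 hangs on that library. In line 1 Top1 was at 0.18 (SE 0.109, adjusted p = 0.55), and with line 1 alone and the replicate block it was at 0.18 with an adjusted p of 0.00368, in a fit where 14.4% of all genes passed as higher.

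**Figure D3:**
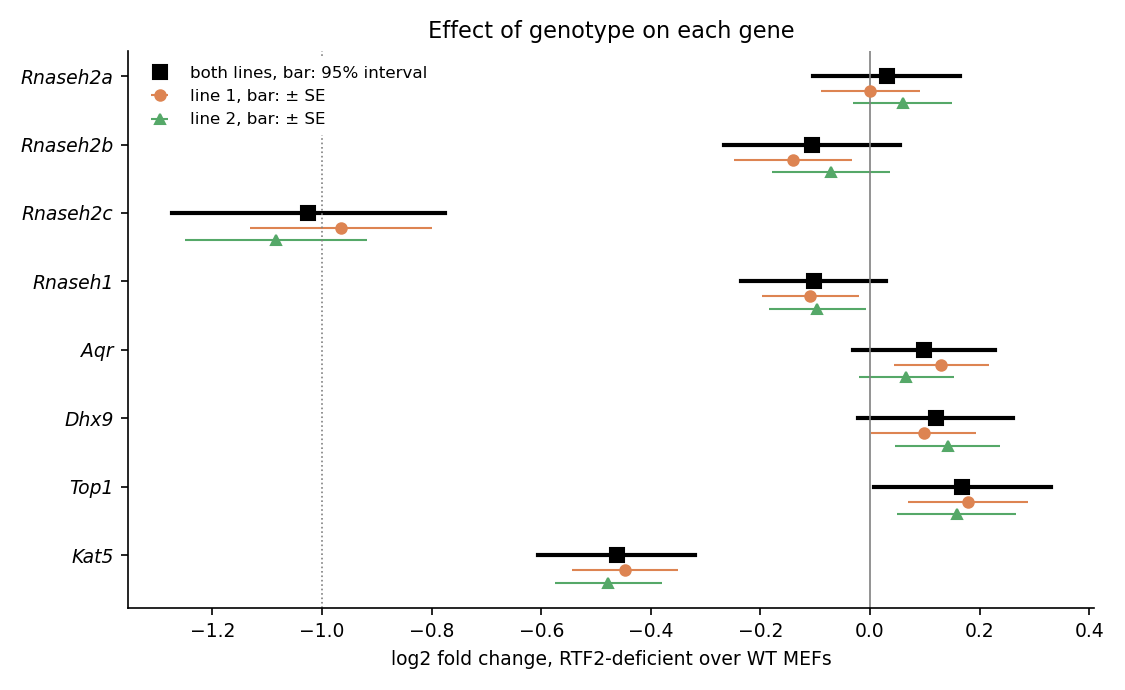
Log2 fold change, RTF2-deficient over WT (x axis), of the 7 genes and of Kat5, the gene next to Rnaseh2c. Black squares give the estimate over both lines with its 95% confidence interval, and circles and triangles the estimates in line 1 and line 2 with their SE; the dotted line marks a fall by 1. Rnaseh2c lies at -1.02 and Kat5 at -0.46, and the intervals of the other genes lie between -0.27 and 0.33.

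The lines themselves gave a yardstick. Between WT line 2 and WT line 1, 14.0% of all genes passed an adjusted p of 0.05, and 0 of the 7 did in edgeR's quasi-likelihood test. Aqr was 0.22 higher in WT line 2 on the log2 scale (SE 0.0871, adjusted p = 0.118), and without WT line 2 replicate 2 this was 0.31 with an adjusted p of 0.0248. Rnaseh2c differed by 0.048 between the WT lines (SE 0.163, adjusted p = 0.882). Without the 3 libraries of highest interferon score, described below, the same difference rested on 1 library of WT line 2 and was 0.45. Between the RTF2-deficient lines 1.94% of all genes passed and 0 of the 7. Rnaseh2c differed there by -0.071 (SE 0.166, adjusted p = 0.919). DESeq2 and limma-voom called 0 of the 7 in either comparison of lines. Their shares of all genes are not given here, so these counts say nothing about the group.

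Levels of different genes were set in order per kilobase of the principal coding transcript. For Rnaseh2c this was the GENCODE transcript of 1126 bases, and 426 bases of its exons are also exon of Kat5, past the RefSeq end. A shorter length, which would raise its level, was not tried, so the place of Rnaseh2c rests on that length. In WT MEFs Dhx9 led with 79.5 ± 6.04 CPM per kilobase (SD, n = 6), followed by Top1 with 35.8 ± 2.77 and Aqr with 21.2 ± 2.59. Rnaseh2b stood at 19.1 ± 1.85, Rnaseh2c at 14.0 ± 2.67, Rnaseh2a at 13.7 ± 1.08 and Rnaseh1 at 8.77 ± 0.509 CPM per kilobase. Aqr overlapped with Rnaseh2b, Rnaseh2b with Rnaseh2c and Rnaseh2c with Rnaseh2a, so only the places of Dhx9, Top1 and Rnaseh1 were separated from their neighbours in that order. In RTF2-deficient MEFs Rnaseh2c stood last at 6.86 ± 0.336 CPM per kilobase (SD, n = 6), below Rnaseh1 at 8.16 ± 0.45. There no neighbouring pair overlapped, and the order of the other 6 was as in WT. With the longest annotated transcript of Rnaseh2a as its length, its level was 9.42 in WT and 9.62 in RTF2-deficient MEFs, against means of 8.77 and 8.16 for Rnaseh1. Rnaseh2a then ran from 8.15 to 10.4 in WT, which overlapped with Rnaseh1 at 7.87 to 9.43, and from 9.11 to 10.2 in RTF2-deficient MEFs, which did not overlap with Rnaseh1 at 7.55 to 8.73.

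Rnaseh2c and the gene Kat5, an acetyltransferase of the TIP60 complex, point at each other from opposite strands. Their RefSeq models end 54 bases apart and their GENCODE models share 426 bases of exon, and whether the counting used strand is not given in the sources used here, so reads from the shared end could have gone to either gene. Kat5 was at 33.6, 33.1 and 33.1 CPM in WT line 1 and at 25.1, 23.7 and 24.4 CPM in RTF2-deficient line 1. In line 2 it was at 31.1, 33.4 and 30.8 CPM in WT and at 20.4, 21.2 and 26.8 CPM in RTF2-deficient MEFs. Kat5 fell as well, without overlap between the genotypes, but by less. Its log2 fold change was -0.46 (SE 0.0658; edgeR's quasi-likelihood test, adjusted p = 0.000755). The log2 ratio of Rnaseh2c to Kat5 was lower by -0.54 in RTF2-deficient MEFs (exact permutation test, two-sided p = 0.005, in 6 of 6 libraries below every WT library; a test added after the values were seen). Shared reads as a part of either change were not tested.

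Of 8 RefSeq genes beside the other members, 4 are not analysed here, and the other 4 did not pass or were too low to test. Prdx2, a peroxiredoxin gene 23 bases from Rnaseh2a, lay between 132 and 197 CPM in WT and between 148 and 182 CPM in RTF2-deficient libraries (log2 fold change -0.054, SE 0.0939, adjusted p = 0.74 in edgeR's quasi-likelihood test). Rtbdn, 3 bases from Rnaseh2a on its other side, reached at most 0.439 CPM (log2 fold change -0.26, adjusted p = 0.514). Gucy1b2, which overlaps Rnaseh2b by 62 bases, reached at most 0.339 CPM, and Mir7002, within Aqr, had no count.

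Genes further around Rnaseh2c were looked at after its value was seen. Within 250 kb on either side, 29 other genes were tested, of which 9 were lower, 0 were higher and 20 did not pass, where 8.18% of all genes tested were lower and 4.98% were higher. Their median log2 fold change was -0.17, against a median of 0.0019 over all genes. Ltbp3, which encodes a protein that binds latent TGF-beta, had a log2 fold change of -1.14 (SE 0.184, adjusted p = 0.0018 in edgeR's quasi-likelihood test) at 138 kb. Snx32, a sorting nexin gene, had -1.09 (SE 0.137, adjusted p = 0.000335) at 91.2 kb. Neat1, the long noncoding RNA of paraspeckles, had -0.85 (SE 0.13, adjusted p = 0.00124). Mus81, which encodes a structure-specific endonuclease for stalled forks, had -0.32 (SE 0.0669, adjusted p = 0.00883). The genes that fell were interspersed with genes such as Rela at -0.014 (adjusted p = 0.896) and Cfl1 at 0.057 (adjusted p = 0.815). The window was chosen with the value of Rnaseh2c known, and its count was not tested.

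**Figure D4:**
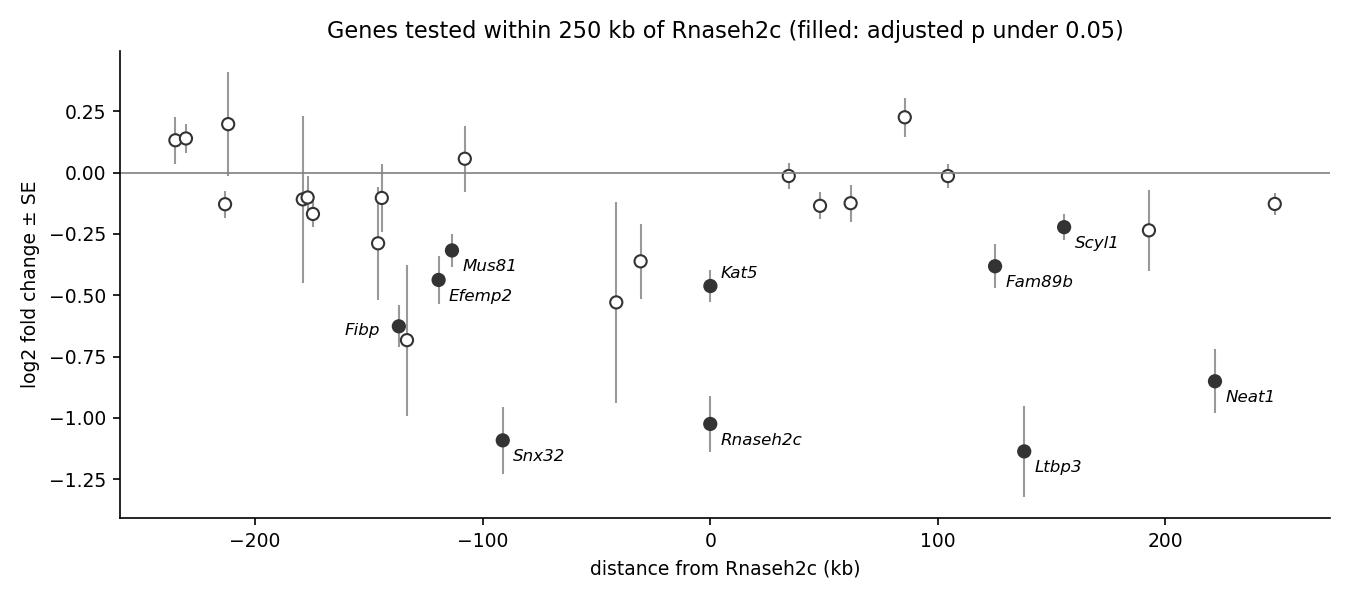
Log2 fold change, RTF2-deficient over WT, with SE (y axis) of the genes tested within 250 kb of Rnaseh2c, by distance from it in kb (x axis). Filled points passed an adjusted p of 0.05 and are named. Besides Rnaseh2c, 9 genes lie below 0 with filled points, Snx32 and Ltbp3 as low as Rnaseh2c, and no filled point lies above 0.

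Lists of genes that act on the same substrates gave changes in both directions. Over 7 lists with 52 genes, all of which were tested, 6 were lower, 5 were higher and 41 did not pass. That is 21.2% of the list genes, beside 13.2% of all genes tested, of which 8.18% were lower and 4.98% were higher. The lists were chosen with earlier results of these data known, so these shares cannot be compared as if independent. None of the 11 changed by more than 1 on the log2 scale. The median log2 fold change was 0.07. All p-values of these genes are adjusted values from edgeR's quasi-likelihood test over both lines.

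Of 6 genes of flap and Okazaki fragment processing, the steps that remove RNA primers during lagging-strand synthesis, 2 were lower and 0 were higher (median -0.16). Pold1, the catalytic subunit of DNA polymerase delta, went from 76.6 ± 3.93 to 55.9 ± 3.61 CPM (SD, n = 6 each; log2 fold change -0.45, adjusted p = 0.000224). Lig1, the ligase that seals Okazaki fragments, had a log2 fold change of -0.21 (adjusted p = 0.03). Dna2, a flap nuclease, had -0.26 and did not pass (adjusted p = 0.142).

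Of 13 helicases and DEAD-box factors linked to RNA-DNA hybrids, 1 was lower and 2 were higher (median 0.15). Rtel1, a helicase of telomeres and replication forks, went from 46.7 ± 3.49 to 30.7 ± 2.73 CPM (SD, n = 6 each; log2 fold change -0.61, adjusted p = 0.000136). Ddx39b, an RNA helicase that loads export factors and unwinds hybrids, went from 191 ± 9.26 to 255 ± 10.9 CPM (log2 fold change 0.42, adjusted p = 0.000169). Fancm, a fork-remodelling translocase, rose from 32.1 ± 4.08 to 42.8 ± 4.66 CPM (log2 fold change 0.42, adjusted p = 0.00736). None of these 3 genes had overlapping genotypes, as was so for 4.41% of all genes in the direction of Rtel1 and for 1.56% in that of Ddx39b and Fancm.

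Of 8 genes of the THO/TREX complexes and RNA packaging, which coat nascent transcripts, 1 was lower and 2 were higher (median 0.14). Thoc6 had a log2 fold change of -0.48 (adjusted p = 0.00107), Thoc2 one of 0.22 (adjusted p = 0.0297) and Thoc3 one of 0.21 (adjusted p = 0.0457), so subunits of one complex moved in opposite directions. Of 5 genes of the nuclear exosome and 5′-3′ RNA decay, 0 passed in either direction (median 0.09), and Exosc10, the exosome's nuclear exonuclease, was nearest at 0.20 (adjusted p = 0.0596; 0.0492 with upper-quartile scaling). Mtrex at 0.10 (adjusted p = 0.239) and Zc3h3 at 0.09 (adjusted p = 0.495) followed. Of 5 partners of Aqr in the intron-binding complex, 1 was higher: Ppie, a cyclophilin of the spliceosome, went from 27.6 ± 2.97 to 38.6 ± 3.26 CPM (SD, n = 6 each; log2 fold change 0.48, adjusted p = 0.00127). Cwc22 at 0.09 (adjusted p = 0.204) and Xab2 at -0.09 (adjusted p = 0.443) did not pass, and the list's median was 0.06.

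Of 8 other topoisomerase and topoisomerase repair genes, 2 were lower and 0 were higher (median -0.05). Top1mt, the mitochondrial topoisomerase I, went from 9.58 ± 0.396 to 7.73 ± 0.444 CPM (SD, n = 6 each; log2 fold change -0.31, adjusted p = 0.00846), the opposite sign to the nuclear Top1. Tdp1, which removes trapped topoisomerase I from DNA, had -0.21 (adjusted p = 0.0341), and Top3b, which acts on RNA as well as DNA, had -0.39 and did not pass (adjusted p = 0.0505; 0.0496 with upper-quartile scaling). Of 7 genes of Aicardi-Goutieres syndrome other than RNase H2 and of nucleic acid sensing, 0 passed (median -0.30). Sting1, the adaptor of cytosolic DNA sensing, had -0.30 (adjusted p = 0.0571), Trex1, a DNA exonuclease, had -0.76 (adjusted p = 0.182), and Cgas, the DNA sensor, had -0.24 (adjusted p = 0.303).

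**Figure D5:**
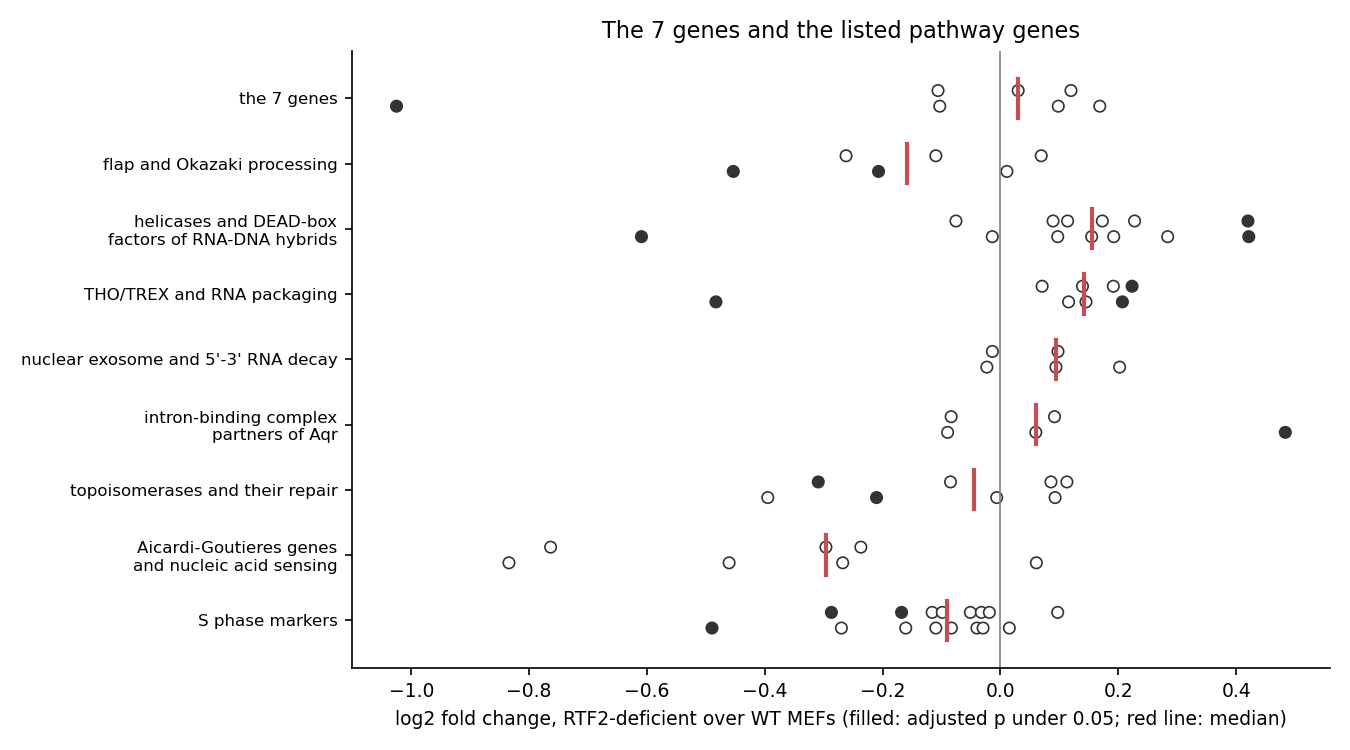
Log2 fold change, RTF2-deficient over WT (x axis), of the 7 genes and of the genes of 7 lists and the S phase markers (rows). Each point is a gene, filled where its adjusted p was under 0.05, and the red line is the list's median. Rnaseh2c at -1.02 lies lower than every gene of the lists, and filled points lie on both sides of 0.

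S phase, when RNase H2 works at replication forks, was followed through 16 markers. Of these, 3 were lower, 0 were higher and 13 did not pass (median -0.09), beside 8.18% lower of all genes: Gins2 at -0.49 (adjusted p = 0.000235 in edgeR's quasi-likelihood test), Mcm7 at -0.29 (adjusted p = 0.00202) and Slbp at -0.17 (adjusted p = 0.0492). Slbp no longer passed with RLE scaling (adjusted p = 0.0589) or upper-quartile scaling (0.0543). The median log2 CPM of the 16 markers was 7.32 to 7.37 in WT line 1 and 7.17 to 7.24 in RTF2-deficient line 1, and 7.48 to 7.56 in WT line 2 and 7.30 to 7.40 in RTF2-deficient line 2. The part of cell cycle in the value of Rnaseh2c was not tested, and fewer cells in a phase and less RNA per cell cannot be told apart in bulk RNA.

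Interferon-stimulated genes, the genes that respond where RNase H2 is lost in patients, spread widely between libraries of one group. Their median log2 CPM over 14 genes ran from 0.77 to 3.97 in WT line 1, from 0.54 to 2.02 in RTF2-deficient line 1, from 4.88 to 8.80 in WT line 2 and from 1.37 to 7.37 in RTF2-deficient line 2. Of the 14, 0 passed in either direction in edgeR's quasi-likelihood test (median -1.70), with Mx1 at -2.31 (SE 1.11, adjusted p = 0.195), Mx2 at -2.38 (SE 1.17, adjusted p = 0.204) and Oas1a at -2.0 (SE 1.0, adjusted p = 0.213). Without the 3 libraries of highest score (WT line 2 replicates 1 and 3 and RTF2-deficient line 2 replicate 3) the log2 fold change of Rnaseh2c was -1.15 (adjusted p = 0.000445). In line 2 it was then -1.54 (adjusted p = 0.000659), and the difference between the lines was -0.57 (adjusted p = 0.173), with WT line 2 replicate 2 alone standing for its group and assumed to vary like the others.

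For each of the 7 genes, the most alike patterns over the 12 libraries were sought among 9280 other genes with a mean of at least 10 CPM. As a description, with the libraries sharing lines and genotypes, Rnaseh2c was most like Ndufa3 (Pearson's r 0.977) and Ndufv1 (0.976), subunits of respiratory complex I. Both were lower, at -0.80 (adjusted p = 0.000225 in edgeR's quasi-likelihood test) and -0.41 (adjusted p = 0.000846). This follows from choosing genes that share the pattern of Rnaseh2c and is no separate result. The genes most like Rnaseh2a were AI506816 (0.932) and Cox11 (0.914), and those most like Rnaseh2b were Dctn3 (0.941) and Lamtor4 (0.919). Rnaseh1 was most like Ppp6r1 (0.855) and A430005L14Rik (0.839), Aqr most like Mul1 (0.961) and Mast4 (0.955), Dhx9 most like Xpo5 (0.957) and Celf1 (0.956), and Top1 most like Prr5 (0.982) and Dlgap4 (0.968).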

How the data were processed

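The values that the authors deposited for the 12 RNA-seq libraries are whole-number read counts for each Entrez Gene identifier, with no scaling. For single-end reads the paper names Salmon with tximport and UCSC models of mm10, while the submitters' notes name HTSeq with mm10, and the table does not show which was used. Poly(A) selection and strand use are stated in neither. Columns were matched to samples by title, and RefSeq's GRCm38 table gave a symbol to 24045 of 24100 identifiers.

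Low genes were removed with filterByExpr (4 groups), TMM set the library sizes, and edgeR 4.0.16 in R 4.3.3 fitted quasi-likelihood models (glmQLFit, glmQLFTest) with line and genotype as terms. Effects within lines, their interaction and the differences between lines were contrasts among the 4 groups. Adjusted p-values are Benjamini-Hochberg values over 14263 genes, with a threshold of 0.05, and the study's call adds a log2 fold change beyond 1. The SE was derived from the coefficient and its F statistic, and 95% intervals from the SE. Log2 CPM used a prior count of 2. Exons and transcript lengths came from GENCODE M21. A count of 0 allows up to 3 counts, 0.077 CPM in the shallowest library, for counting error only. The fit over both lines was also run on counts simulated with the spread between these libraries. That run does not bear on the spread between lines, and its outcome is not given here.

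The named genes were the 7 genes, Rtf2, RefSeq genes that overlap or lie within 1 kb of a member, the 3 genes of smallest p in each list and the 2 most alike genes per member. Genes around Rnaseh2c and the example genes there were added after values were seen. The members and lists were chosen with earlier results of these data known. Results were recomputed with RLE or upper-quartile scaling, all genes with a count, genes at 1 CPM or more in 6 libraries, DESeq2 1.42.0, limma-voom (limma 3.58.1), no line term, summed triplicates, a replicate block, each line alone, each library left out and, added later, without the 3 libraries of highest interferon score and line 1 alone with a replicate block. Deviations of same-numbered WT and RTF2-deficient libraries correlated at 0.625, 0.43 and 0.484 in line 1. The numbers were therefore assumed to pair those libraries, a pairing read from the data and not stated by the labels.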

Additional observations from a re-analysis of the deposited data

How the results depend on the processing

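The fall of Rnaseh2c over both lines stayed below an adjusted p of 0.05 in every alternative except the summed triplicates, from -1.15 to -0.90 on the log2 scale. Leaving out 1 library each gave -1.08 to -0.90. With the sums of triplicates, 0 of the 7 genes and 0 of all genes passed in either direction, Rnaseh2c at -1.02 (adjusted p = 0.103), Rtf2 at -3.02 (0.102) and Kat5 at -0.46 (0.121), while 2737 genes had an unadjusted p under 0.05, so with 4 samples the lost calls show no absence of change. All genes higher numbered 711; they were 1297 with DESeq2, 345 without the line term, 415 without the 3 libraries of highest interferon score, and 335 to 830 with 1 library left out. The number of the 7 genes called higher ran from 0 to 1 with 1 library left out, both between genotypes (Top1, 0.14 to 0.23) and between the WT lines (Aqr, 0.11 to 0.31). Shares of all genes called between the WT lines in those fits are not given here. Without the 3 libraries, Rnaseh2c was 0.45 higher in WT line 2 than in WT line 1, with 1 library standing for WT line 2. With upper-quartile normalization 1 gene of RNA decay was higher (Exosc10), 3 topoisomerase genes were lower (with Top3b) and 2 S phase markers; with RLE 3 helicase genes were higher (with Ddx23) and 2 S phase markers lower. With its longest transcript Rnaseh2a stood at 9.42 and 9.62 CPM per kilobase in WT and RTF2-deficient MEFs.

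Of 919 recomputed gene values, 46 changed sign, none larger than 0.22 and 0 with an adjusted p under 0.05. With 1 library left out, Rnaseh2a ran from -0.0084 to 0.068 over both lines, from -0.023 to 0.023 in line 1, from -0.027 to 0.14 in line 2, from -0.033 to 0.14 in the interaction and from -0.096 to 0.075 between WT lines. In line 2 Rnaseh2b ran from -0.13 to 0.051 and Aqr from -0.019 to 0.17. In the interaction Rnaseh2c ran from -0.27 to 0.15, Rnaseh1 from -0.044 to 0.066, Aqr from -0.15 to 0.037, Dhx9 from -0.017 to 0.12 and Top1 from -0.086 to 0.098. Between WT lines Rnaseh2b ran from -0.083 to 0.087, Rnaseh2c from -0.22 to 0.18 and Dhx9 from -0.097 to 0.049, and between RTF2-deficient lines Dhx9 ran from -0.025 to 0.0903. Line 1 alone gave Rnaseh2a -0.0007, and -0.0005 with the replicate block. Without the 3 libraries it was -0.0008 in line 1 and 0.022 between WT lines, and the interaction was -0.57 for Rnaseh2c (adjusted p = 0.173; -0.12 with all libraries), -0.19 for Rnaseh2b, -0.034 for Rnaseh1, 0.14 for Aqr and 0.016 for Top1. Upper-quartile normalization gave 0.0099 for Rnaseh2a and 0.0064 for Dhx9 between WT lines. The cause of these shifts was not tested.

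In line 2 the numbers did not pair the libraries: same-numbered deviations correlated at -0.587, 0.17 and -0.279. Under other numbers, WT 1 with RTF2-deficient 3 correlated at 0.654, WT 2 with RTF2-deficient 1 at 0.612 and WT 3 with RTF2-deficient 2 at 0.367. With 3 libraries per group some matching can correlate without any pairing. The pairing in line 1 and the block fit that uses it thus rest on an assumption. With a replicate block over both lines 1065 genes were lower and 581 higher, against 1167 and 711 without, Rnaseh2c was at -1.02 (adjusted p = 0.000449), and no call among the 7 genes changed. With line 1 alone and the block, 1 of the 7 was higher (Top1, 0.18, adjusted p = 0.00368). Depth was even, and the spread between libraries, 15.2% for Rnaseh2c within groups (5.46% without WT line 2 replicate 2) against 5.73% to 9.46% for the other 6, limits what changes could be seen.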
